A study of Mus with 18 samples.

Results

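The 10 genes described here encode transcription factors that define lens identity. They are Pax6 (ENSMUSG00000027168), Foxe3 (ENSMUSG00000044518), Prox1 (ENSMUSG00000010175), Maf (ENSMUSG00000055435), Hsf4 (ENSMUSG00000033249), Pitx3 (ENSMUSG00000025229), Six3 (ENSMUSG00000038805), Sox1 (ENSMUSG00000096014), Sox2 (ENSMUSG00000074637) and Tfap2a (ENSMUSG00000021359). They were picked by their Ensembl gene IDs as regulators of lens development, and all 10 were found among the 55416 gene IDs of the count tables. The question was whether their mRNAs hold or fall after lens injury in 3 genotypes.

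RNA came from mouse lens epithelial cells (LECs) left on the lens capsule, either at 0 h or at 6 h after surgical removal of the fiber cells, a model of cataract surgery (PCS, post cataract surgery). The 18 libraries form 6 groups of 3, namely WT, Egr1KO and FosBcKO at each time, and each library pooled lens capsules of 5 animals. One eye of a mouse was operated 6 h before the other and both capsules were taken at the second surgery, so 0 h capsules came from mice whose other lens was already injured, and the sources do not say which 0 h and 6 h pools share mice. WT is labelled wildtype, Egr1KO carries a germline deletion of Egr1 in all tissues, and FosBcKO lacks Fosb exons 2 and 3 wherever MLR10 cre, a transgene driven by a modified alphaA-crystallin promoter, was active. Labels give C57BL/6 as the strain of all groups. The paper's stock name for the Egr1KO line holds a further strain beside C57BL/6, and its MLR10 cre line came on FVB/N and was backcrossed to C57BL/6. Whether strain background differed between the groups was not tested. The mice were 3 to 5 months old and of both sexes. Whether WT mice carried the cre transgene or the floxed allele is not stated in the sources used here. The genotypes are named as labelled, since the counts of Egr1 and Fosb were not analysed here.

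The lens grows from a single layer of epithelial cells, which divide at the front of the lens and turn into elongated fiber cells at its equator. Pax6 and Six3 establish the eye field and lens placode, and Sox2 works beside Pax6 as the placode thickens. Foxe3, Pitx3 and Tfap2a act in the lens vesicle and in the epithelium that forms from it, whereas Prox1, Maf, Sox1 and Hsf4 drive fiber cell elongation, crystallin gene activation and fiber maturation. Several of these genes stay on in the adult epithelium, and mutations in many of them cause cataract or malformed eyes in mice and humans.

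Each library held 9609295 to 13871592 read pairs assigned to genes. Levels are given as CPM, the counts scaled to 1000000 such pairs per library. The smallest count of any of the 10 genes was 61 pairs, for Hsf4 in WT 6 h replicate 1 (95% exact Poisson interval 46.7 to 78.4, counting error only), and the largest was 12028 pairs, for Prox1 in WT 0 h replicate 2. All 10 genes passed the filter on low counts in each comparison and were counted in all 18 libraries, so none passed it through one time point alone. Of the markers fixed for lens epithelium, Pax6 and Foxe3 were at 213 to 706 CPM and 75.05 to 275 CPM over the 18 libraries. Read pairs outside annotated genes made up 8.03% to 20.9% of a 0 h library and 20.0% to 30.5% of a 6 h library, which is a difference between the times that goes with each result on injury below, and its part in those results was not tested. Bulk data of this kind cannot tell fewer cells that express a gene from less RNA per cell.

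At 6 h PCS most of the 10 lens identity genes had fallen in WT LECs, with Foxe3 and Tfap2a short of the threshold. A gene is said to have risen or fallen where edgeR's quasi-likelihood test gave a false discovery rate (FDR, the Benjamini-Hochberg adjusted p over all genes tested) of at most 0.05. In WT 8 of 10 fell and 0 rose, against 9.72% of 15440 genes that fell and 26.2% that changed in either direction. Changes over 2-fold, the study's rule for a differentially expressed gene (DEG), were found in 7 of these 8, against 17.1% of all genes. The median log2 fold change of the 10 genes was -1.43, and that of all genes tested was -0.02. The 0 h and 6 h libraries did not overlap in 9 of 10 genes, which was also the case for 48.0% of all genes tested. The calls above come from a fit without the replicate number, which may pair the WT libraries. With that number as a block, 9 of 10 fell in WT (30.6% of all genes changed), with Tfap2a added.

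The same direction was found in both knockout groups, with fewer genes past the threshold. In Egr1KO 3 of 10 fell (Hsf4, Sox2 and Tfap2a) and 0 rose, against 9.04% of 14586 genes that fell and 21.2% that changed. By edgeR's exact test, which the study used for its later analysis, 5 of 10 fell in Egr1KO (26.0% of all genes changed), with Prox1 and Sox1 added, and 7 of 10 in FosBcKO (25.7%). In FosBcKO 7 of 10 fell and 0 rose, against 7.70% of 15475 genes that fell and 21.8% that changed. DEGs numbered 2 of 10 in Egr1KO (12% of all genes) and 5 of 10 in FosBcKO (13.1%). The 10 genes had a median log2 fold change of -0.92 in Egr1KO, where the median of all genes tested was 0.00. In FosBcKO these medians were -0.99 and 0.05. Libraries of the 2 times did not overlap in 6 of 10 genes in Egr1KO and in 9 of 10 in FosBcKO, against 43.3% and 42.9% of all genes.

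When the 18 libraries were fitted together with genotype as a term, 9 of 10 genes fell and 0 rose, against 22.6% of 17469 genes that fell and 51.5% that changed. The median log2 fold change was -1.09 for the 10 genes and 0.08 for all genes tested. DEGs numbered 5 of 10 (Prox1, Hsf4, Pitx3, Sox1 and Sox2), against 22.1% of all genes. For all 10 genes the 3 group means at 0 h lay above the 3 group means at 6 h, a pattern held by 23.9% of 17469 genes. Every 0 h library lay above every 6 h library, whatever the genotype, for 6 of 10 (Prox1, Hsf4, Pitx3, Sox1, Sox2 and Tfap2a), against 6.02% of all genes.

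**Figure D1:**
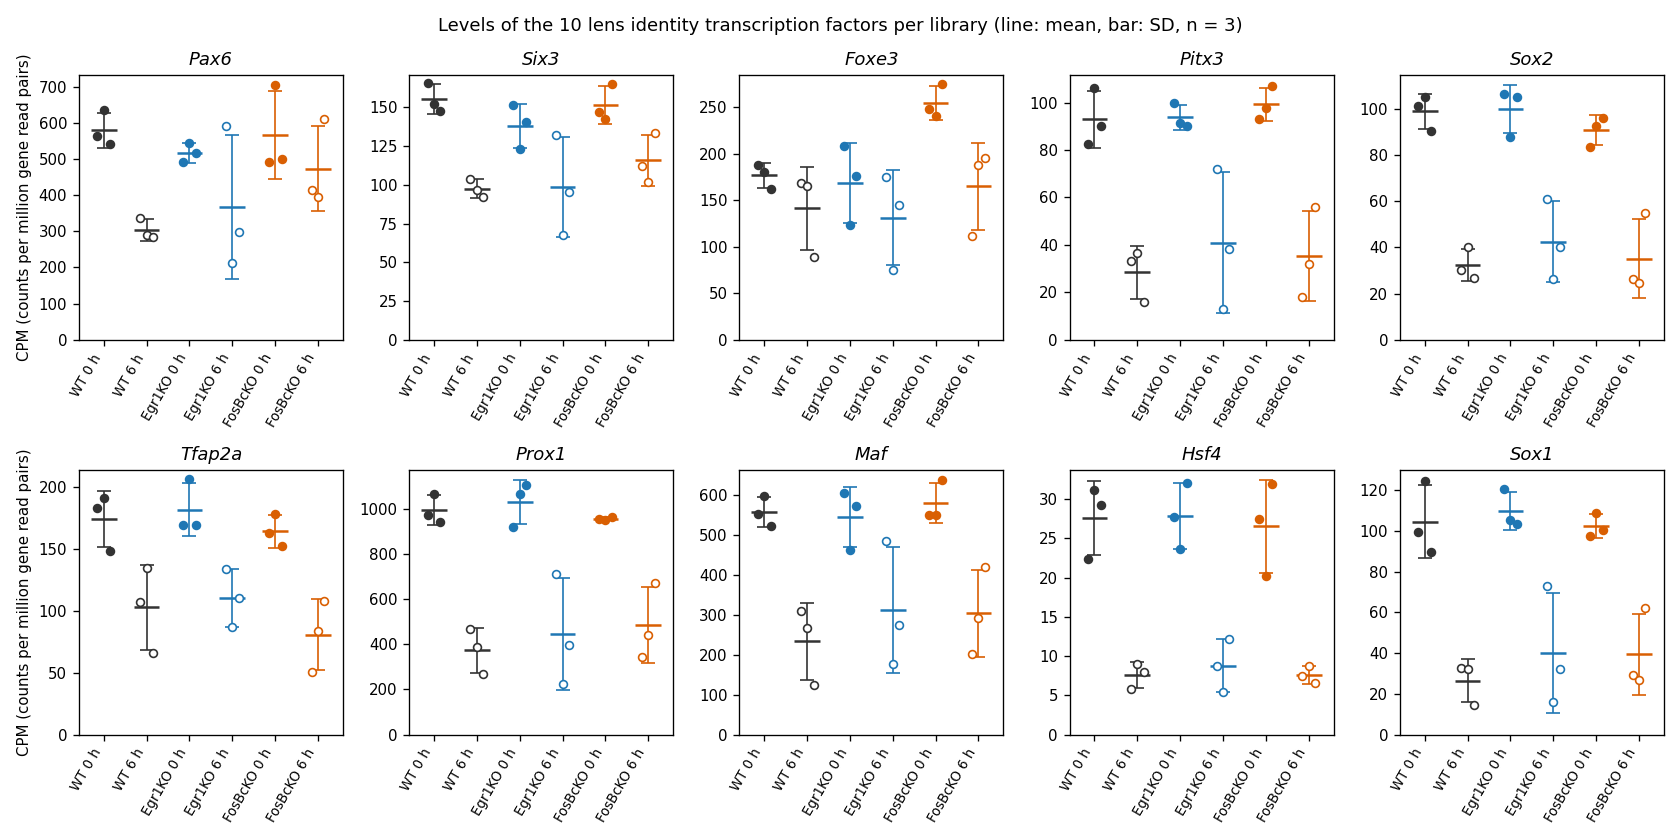
CPM of each gene (vertical axis, linear from 0) in each of the 6 groups; dots are libraries, filled at 0 h and open at 6 h, lines are means and bars the SD of 3 libraries. The 0 h libraries of Hsf4 lie between 20.2 and 32.05 CPM and the 6 h libraries between 5.41 and 12.1 CPM, whereas for Foxe3 and Pax6 the times overlap in at least 1 genotype.

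Pax6, the homeodomain factor at the head of eye development, was reduced in WT and was within the spread of the libraries in the knockout groups. In WT it was at 565, 634 and 541 CPM at 0 h and at 338, 289 and 284 CPM at 6 h, with no overlap. Its log2 fold change in WT was -1.04 ± 0.19 (SE, n = 3 a group, edgeR quasi-likelihood test, FDR 0.0069). In Egr1KO it was at 490.5, 545 and 516 CPM at 0 h and at 592, 213 and 297 CPM at 6 h, so that 1 library at 6 h lay above the 0 h libraries. In FosBcKO it was at 491, 706 and 499.9 CPM at 0 h and at 415, 396 and 609 CPM at 6 h, where the times overlapped as well. The log2 fold changes were -0.41 ± 0.36 (FDR 0.44) in Egr1KO and -0.25 ± 0.21 (FDR 0.39) in FosBcKO by the same edgeR test. Over all genotypes Pax6 fell by 0.56 on the log2 scale (SE 0.17, edgeR FDR 0.012).

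Six3, a homeodomain factor that acts with Pax6 in lens induction, moved by a similar amount. It was at 166, 152 and 147 CPM at 0 h and at 103.8, 96.9 and 92.1 CPM at 6 h in WT, with no overlap and a log2 fold change of -0.77 ± 0.15 (edgeR FDR 0.0086). In Egr1KO the 0 h libraries ran from 123 to 151 CPM and the 6 h libraries from 67.8 to 132 CPM, which overlap, and in FosBcKO from 142 to 165 and from 101.5 to 134 CPM, which do not. Neither knockout passed the threshold (-0.42 ± 0.26, edgeR FDR 0.27 in Egr1KO and -0.39 ± 0.15, edgeR FDR 0.086 in FosBcKO). Over all genotypes Six3 fell by 0.52 on the log2 scale (SE 0.12, edgeR FDR 0.0011).

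Sox2, an HMG box factor that partners Pax6 on lens enhancers, fell in each of the 3 genotypes. WT libraries were at 101, 105 and 90.6 CPM at 0 h and at 30.2, 40.1 and 26.8 CPM at 6 h. Egr1KO libraries were at 106, 87.9 and 105 CPM at 0 h and at 61.07, 26.1 and 40.2 CPM at 6 h. FosBcKO libraries were at 83.6, 92.7 and 95.99 CPM at 0 h and at 26.1, 24.4 and 54.8 CPM at 6 h. The times did not overlap in any genotype, and all 9 libraries at 6 h lay below all 9 at 0 h. The log2 fold changes were -1.71 ± 0.21 in WT (edgeR FDR 0.0019), -1.16 ± 0.31 in Egr1KO (edgeR FDR 0.035) and -1.38 ± 0.29 in FosBcKO (edgeR FDR 0.013). Over all genotypes the level at 6 h was 0.377 of that at 0 h (95% interval 0.290 to 0.491).

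Foxe3, the forkhead factor that keeps the lens epithelium dividing and alive, was the gene of the 10 that did not pass the threshold in WT, in Egr1KO, in FosBcKO or over all genotypes. WT libraries were at 188, 180 and 162 CPM at 0 h and at 169, 166 and 89.5 CPM at 6 h, with 2 of the 3 at 6 h inside the 0 h range. In Egr1KO it was at 208.5, 123 and 176 CPM at 0 h and at 175, 75.05 and 145 CPM at 6 h, again with overlap. In FosBcKO it was at 248, 241 and 275 CPM at 0 h and at 111, 189 and 196 CPM at 6 h, with no overlap. The log2 fold changes were -0.41 ± 0.27 (FDR 0.29), -0.29 ± 0.35 (FDR 0.57) and -0.61 ± 0.23 (FDR 0.081) in WT, Egr1KO and FosBcKO by edgeR. Over all genotypes the value was -0.43 ± 0.19 (edgeR FDR 0.065), with a 95% interval of the fold from 0.565 to 0.977, and it was called lower in 5 of 26 other settings of the fit. With the replicate number as a block it passed over all genotypes (-0.49, edgeR FDR 0.0036) and in FosBcKO (-0.66, edgeR FDR 0.014). It did not pass in WT (edgeR FDR 0.11), where the numbers were taken to pair the libraries, or in Egr1KO (edgeR FDR 0.16). In FosBcKO it was called in 4 of 16 other settings.

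Pitx3, a homeodomain factor whose loss leaves the aphakia mouse without a lens, was among the genes with the lowest 6 h levels relative to 0 h. WT libraries were at 82.7, 106 and 90.01 CPM at 0 h and at 33.1, 36.4 and 15.7 CPM at 6 h. FosBcKO libraries were at 92.99, 97.8 and 107 CPM at 0 h and at 18.03, 31.97 and 55.8 CPM at 6 h. In Egr1KO it went from between 90.2 and 99.8 CPM to 71.96, 12.8 and 38.1 CPM, which does not overlap with 0 h but is a wide spread. It fell in WT (-1.80 ± 0.33, edgeR FDR 0.0080) and FosBcKO (-1.49 ± 0.37, edgeR FDR 0.031), and the value in Egr1KO was -1.11 ± 0.53 (edgeR FDR 0.17).

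Tfap2a, which encodes AP-2alpha, a factor needed for the lens vesicle to part from the surface ectoderm, fell in both knockout groups. It was at 163, 178 and 152 CPM at 0 h and at 50.8, 83.6 and 108 CPM at 6 h in FosBcKO (-1.01 ± 0.25, edgeR FDR 0.022). In Egr1KO the libraries went from between 169 and 206 CPM to between 86.7 and 133 CPM (-0.65 ± 0.20, edgeR FDR 0.049), a call that held in 6 of 16 other settings (edgeR or DESeq2 adjusted p from 0.0026 to 0.14) and in 1 of the 6 fits without 1 library, that without 6 h replicate 1. WT libraries were at 183, 191 and 148 CPM at 0 h and at 108, 135 and 66.06 CPM at 6 h, without overlap, and the value of -0.85 ± 0.29 did not pass (edgeR FDR 0.060). Same-numbered WT libraries deviated together, and with the replicate number as a block Tfap2a passed in WT too (-0.92, edgeR FDR 0.0075), which brings the WT count to 9 of 10 (30.6% of all genes in that fit).

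Prox1, the homeodomain factor required for fiber cells to leave the cell cycle and elongate, fell in WT and FosBcKO. WT libraries were at 974, 1069 and 945 CPM at 0 h and at 467, 387 and 267 CPM at 6 h. FosBcKO libraries were at 958, 951 and 966 CPM at 0 h, the tightest group of any of these genes, and at 345, 441 and 674 CPM at 6 h. Egr1KO libraries were at 922, 1068 and 1106 CPM at 0 h and at 713, 223 and 399 CPM at 6 h. The times did not overlap in any of the 3 genotypes. The log2 fold changes were -1.51 ± 0.27 in WT (edgeR FDR 0.0063), -0.97 ± 0.23 in FosBcKO (edgeR FDR 0.018) and -1.13 ± 0.40 in Egr1KO, where it did not pass (edgeR FDR 0.080).

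Maf, the bZIP factor c-Maf that activates crystallin genes in elongating fibers, fell in the same 2 genotypes. WT libraries went from 552, 598 and 522 CPM to 310, 266 and 124 CPM (-1.34 ± 0.35, edgeR FDR 0.025). FosBcKO libraries went from between 550 and 638 CPM to between 201 and 419 CPM (-0.93 ± 0.25, edgeR FDR 0.028). In Egr1KO the 0 h libraries ran from 461 to 605 CPM and the 6 h libraries from 177 to 485 CPM, so that 1 library at 6 h reached the 0 h range, and the value of -0.73 ± 0.36 did not pass (edgeR FDR 0.18).

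Hsf4, a heat shock factor that drives fiber maturation and the breakdown of fiber nuclei, fell in all 3 genotypes and had the lowest edgeR FDR of the 10 in the fit over all genotypes. It was at 22.3, 31.2 and 29.3 CPM at 0 h and at 5.75, 8.97 and 7.91 CPM at 6 h in WT. Egr1KO libraries went from 27.7, 23.6 and 32.05 CPM to 8.71, 5.41 and 12.1 CPM. FosBcKO libraries went from 27.4, 20.2 and 31.9 CPM to 7.47, 8.73 and 6.53 CPM. Each 6 h library was far below each 0 h library, and the mean at 6 h was 7.54, 8.75 and 7.58 CPM in WT, Egr1KO and FosBcKO. The log2 fold changes were -1.98 ± 0.25 (edgeR FDR 0.0021), -1.60 ± 0.33 (edgeR FDR 0.015) and -1.80 ± 0.26 (edgeR FDR 0.0031). Over all genotypes the level at 6 h was 0.290 of that at 0 h (95% interval 0.227 to 0.370, edgeR FDR 2.0e-07).

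Sox1, an HMG box factor needed for gamma-crystallin expression and fiber elongation, had the most negative WT value of the 10. WT libraries were at 99.6, 124.5 and 89.9 CPM at 0 h and at 32.6, 32.5 and 14.3 CPM at 6 h (-2.07 ± 0.35, edgeR FDR 0.0057), so the mean went from 105 ± 17.9 to 26.5 ± 10.5 CPM (SD, n = 3). In FosBcKO it was at 97.6, 109 and 100.6 CPM at 0 h and at 29.4, 26.7 and 62.4 CPM at 6 h (-1.38 ± 0.29, edgeR FDR 0.014). Egr1KO libraries went from between 103.5 and 121 CPM to 73.05, 15.8 and 32.02 CPM, without overlap, but the value of -1.37 ± 0.50 did not pass (edgeR FDR 0.088).

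**Figure D2:**
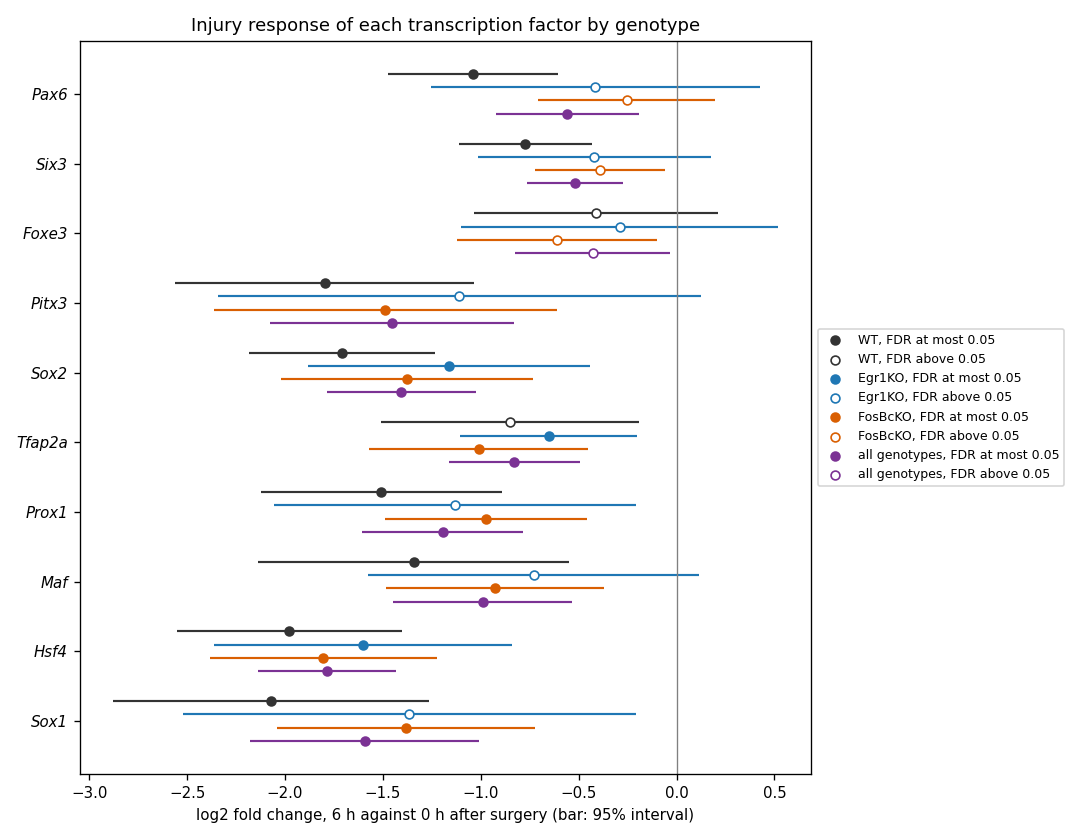
Log2 fold change at 6 h against 0 h (horizontal axis) for each gene, with its 95% interval, in WT, Egr1KO, FosBcKO and the fit of all genotypes; filled points have an edgeR FDR of at most 0.05. All 40 points lie below 0, from -2.07 (Sox1 in WT) to -0.25 (Pax6 in FosBcKO).

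The 10 genes did not move by the same amount. Each of the other 9 was divided by Pax6 of the same library, a ratio that needs no scaling between libraries, and its log2 value was compared between the times by an exact two-sided permutation test within genotypes (9 ratios, 8000 arrangements each, smallest possible p 0.00025; this comparison was chosen after seeing the data). Relative to Pax6, 5 genes were lower at 6 h at that smallest p, namely Hsf4 by a log2 difference of -1.19, Sox1 by -1.15, Pitx3 by -1.04, Sox2 by -0.86 and Prox1 by -0.68. Maf was lower relative to Pax6 by -0.48 (exact p 0.0033, n = 9 libraries a time). For these 6 genes the ratio was lower in 3 of 3 genotypes, and the largest p without any 1 library was 0.013. The ratios of Six3 (0.08, exact p 0.50), Foxe3 (0.12, exact p 0.54) and Tfap2a (-0.27, exact p 0.16) to Pax6 did not pass, and their sign was not the same in all genotypes. All 9 ratios share the Pax6 counts, and Pax6 itself fell over all genotypes. The permutations moved libraries freely within a genotype, so the test left out any pairing of 0 h and 6 h pools.

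**Figure D3:**
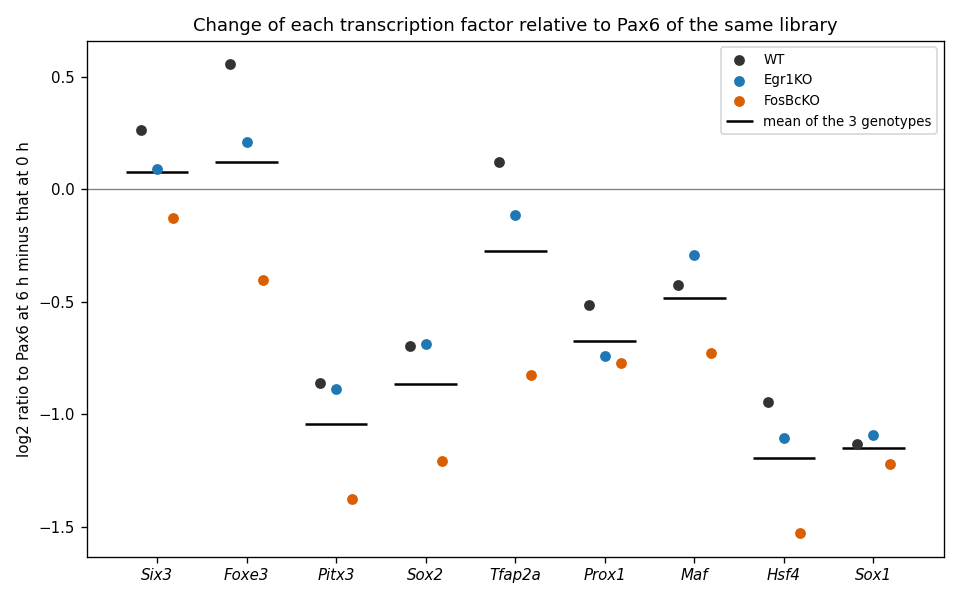
Log2 ratio of each gene to Pax6 of the same library at 6 h minus that at 0 h (vertical axis), for WT, Egr1KO and FosBcKO (dots, differences of group means of 3 libraries) and their mean (line). Hsf4, Sox1, Pitx3, Sox2, Prox1 and Maf lie below 0 in all 3 genotypes, whereas Foxe3 runs from 0.56 in WT to -0.40 in FosBcKO.

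Libraries taken at 6 h varied more than those taken at 0 h, and the 10 genes, Hsf4 apart, varied together. The coefficient of variation among the 3 libraries of a group was larger at 6 h for all 10 genes in Egr1KO and for 9 of 10 in each of the other genotypes. The share of all genes with a larger value at 6 h was not counted, so this is not shown to be particular to the 10. Its median over the genes went from 7.98% to 29.4% in WT, from 10.3% to 46.0% in Egr1KO and from 7.55% to 35.2% in FosBcKO. The mean over the 10 genes of the log2 ratio to the WT 0 h mean was -1.12, -1.05 and -1.74 in the 3 WT libraries at 6 h. It was -0.45, -1.86 and -1.04 in Egr1KO and -1.44, -1.14 and -0.61 in FosBcKO. All 9 values at 0 h lay between -0.13 and 0.12, so the highest 6 h library, Egr1KO replicate 1, was still below the lowest 0 h library.

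**Figure D4:**
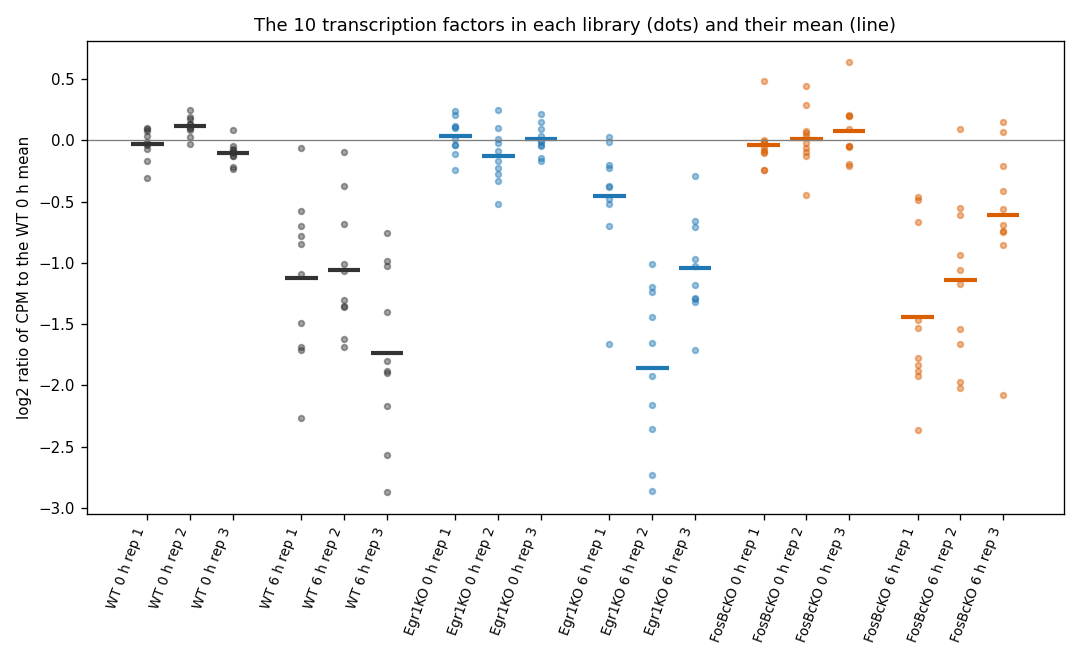
Log2 ratio of CPM to the WT 0 h mean (vertical axis) for the 10 genes in each of the 18 libraries; dots are genes and lines are their means. The 0 h means lie between -0.13 and 0.12 and the 6 h means between -1.86 and -0.45, with Egr1KO 6 h replicates 1 and 2 at the ends of that range.

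In Egr1KO at 6 h, replicate 1 held the highest level of the group for 9 of 10 genes (Hsf4 apart), and replicate 2 the lowest for 10 of 10. A first principal component was taken over genes with at least 10 pairs summed over the 18 libraries. On it, replicate 1 stood at -6.41 beside 68.9 and 36.2 for replicates 2 and 3, while the 0 h libraries of all genotypes lay between -69.8 and -33.2. Without replicate 1, 9 of 10 genes fell in Egr1KO (33.9% of all genes changed in that fit), with Prox1 at -1.70 and Sox1 at -2.18, and Foxe3 at -0.60 did not pass (edgeR FDR 0.28). Without 0 h replicate 1 or replicate 3 of Egr1KO, 0 of 10 passed (6.08% and 3.94% of all genes). FosBcKO at 6 h had a similar library in replicate 3, which was highest in 9 of 10 genes. It was lowest for Hsf4, though on few counts (76 pairs beside 87 and 101). On that component it stood at 16.8 beside 78.9 and 51.2. Without it 9 of 10 genes fell in FosBcKO (28.2% of all genes changed), with Foxe3 at -0.80 (edgeR FDR 0.043) and Pax6 at -0.54 (edgeR FDR 0.067). In WT, 6 h replicate 3 was lowest for 9 of 10 genes. Leaving it out gave 9 of 10 (24.3% of all genes changed), as did leaving out 6 h replicate 2 (25.1%).

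Other libraries took calls away when left out. Maf did not pass in WT without any 1 of the 3 WT libraries at 0 h (edgeR FDR 0.058 to 0.073, with 13.1% to 15.1% of all genes changed in those fits). In FosBcKO the count went from 7 to 3, 4 and 2 of 10 without 0 h replicates 1, 2 and 3, and to 4 of 10 without 6 h replicate 2. The share of all genes that changed went from 21.8% to 11.0%, 15.4%, 6.73% and 11.7% in those fits. In Egr1KO 1 of 10 passed without 0 h replicate 2 or 6 h replicate 3, and 2 of 10 without 6 h replicate 2. The shares of all genes were 8.14%, 6.69% and 15.5%. Hsf4 and Sox2 fell in 16 of 16 other settings in WT and in 16 of 16 in FosBcKO, while Sox2 passed in 12 and Hsf4 in 14 of 16 in Egr1KO. Over all genotypes Prox1, Hsf4, Pitx3, Sox1 and Sox2 fell in 26 of 26 other settings. No other cell type's markers could be read beside these libraries, since only the 10 genes were named here.

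Before injury the knockouts did not differ from WT beyond the threshold in any of the 10 genes. By edgeR's exact test 0 of 10 changed in Egr1KO against WT at 0 h (0.543% of 14373 genes changed), and none had an unadjusted p under 0.05. The log2 differences ran from -0.14 for Pax6 to 0.09 for Sox1, with a median of 0.04 beside 0.00 over all genes. The 95% interval for Pax6 was -0.34 to 0.05, and that for Prox1 was -0.14 to 0.28. In FosBcKO against WT at 0 h 0 of 10 changed as well (0.392% of 14556 genes). One of them, Foxe3, had an unadjusted p under 0.05.

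Foxe3 at 0 h stood at 241 to 275 CPM in FosBcKO and at 162 to 188 CPM in WT, and the groups did not overlap, as was the case for 14.2% of all genes in that comparison. The log2 difference was 0.52 ± 0.11 (95% interval 0.29 to 0.76), with an exact test p of 0.0016 and an edgeR FDR of 0.20. DESeq2 gave an adjusted p of 0.0037 for it, which is 1 of 16 other settings in which it was called. The 9 other genes lay between -0.13 and 0.09 in FosBcKO against WT at 0 h, with a median over all 10 of -0.04 beside -0.01 for all genes.

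At 6 h 0 of 10 genes changed in Egr1KO against WT by edgeR's exact test (0.743% of 15618 genes changed), and none had an unadjusted p under 0.05. Their log2 differences were all above 0, from 0.11 for Foxe3 to 0.83 for Sox1, with a median of 0.49 beside 0.03 over all genes, and WT and Egr1KO libraries overlapped for all 10. The intervals were wide, from -0.49 to 2.15 for Sox1 and from -0.39 to 1.41 for Pax6. In FosBcKO against WT at 6 h 0 of 10 changed (6.26% of 16155 genes changed), and 9 of 10 values were above 0 with a median of 0.40 beside 0.00 over all genes. These comparisons share the WT 6 h libraries, which had the lowest group mean of all 6 groups for 8 of 10 genes.

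Pax6 was the gene of the 10 with an unadjusted p under 0.05 in FosBcKO against WT at 6 h. It stood at 396 to 609 CPM in FosBcKO and at 284 to 338 CPM in WT, without overlap, as did 21.8% of all genes. The log2 difference was 0.76 ± 0.25 (95% interval 0.19 to 1.34), with an exact test p of 0.0063 and an edgeR FDR of 0.082. It passed with DESeq2 (adjusted p 0.045) and without FosBcKO 6 h replicate 1 (0.90, edgeR FDR 0.043), and in none of the other 14 settings.

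The test of the difference between genotypes is the interaction of genotype and time. By edgeR's quasi-likelihood test 0 of 10 genes, and 0 of 17469 genes in all, passed the threshold for a response in Egr1KO or in FosBcKO unlike that in WT. Of all genes, 1141 and 1171 had an unadjusted p under 0.05. DESeq2 called 2 and 40 genes, none of them among the 10. No gene of the 10 had an unadjusted p under 0.05 in either interaction. In simulated counts the FosBcKO interaction test called 0 of 200 genes changed 2-fold and 147 of 200 changed 4-fold. It could therefore miss differences of 2-fold or less, and its lack of calls does not show equal responses. The interaction was closest for Pax6, with a log2 difference of responses of 0.73 ± 0.41 in FosBcKO (95% interval -0.12 to 1.58, edgeR p 0.089) and 0.60 ± 0.41 in Egr1KO (95% interval -0.25 to 1.45, edgeR p 0.16). For Hsf4, by contrast, the values were 0.12 ± 0.41 in FosBcKO and 0.35 ± 0.41 in Egr1KO. The medians were 0.30 and 0.44 for the 10 genes and -0.03 and 0.02 for all genes tested. The larger number of genes that passed in WT than in Egr1KO is therefore not shown to be a difference between genotypes.

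Across the 18 libraries the 10 genes followed one another, as a description over points that share time, genotype and library. Pearson's r of log2 CPM over the 45 pairs ran from 0.55 to 0.98 with a median of 0.86. No median over pairs of all genes was computed, here or within groups, so this likeness is not shown to be particular to the 10. Prox1 and Sox1 were the closest pair (r = 0.98, n = 18 libraries), and each was the closest of 17468 other genes to the other. Pax6 was closest to Six3 among the 10 (r = 0.89), with 38 other genes closer. Foxe3 was closest to Maf (r = 0.81), which ranked 65 among the 17468 genes. Hsf4 and Tfap2a were each closest to Sox2, which ranked 141 for Hsf4 and 248 for Tfap2a. After subtraction of each group's mean, r was above 0 for 44 of 45 pairs with a median of 0.78. Hsf4 stood apart within groups, being the least similar of the 10 to each of the other genes, with r of 0.37 or less and of -0.03 with Pax6. It also had the lowest counts, with 61 to 129 pairs at 6 h, where each other gene had at least 150. The part of counting error in its low r was not tested. The genes outside the 10 carry IDs only and are not named here.

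Several of these genes overlap other annotated genes. By the RefSeq gene table (assembly GRCm38.p6), Pax6 overlaps Pax6os1 and Elp4, Pitx3 overlaps Elovl3, and Prox1, Six3, Sox1, Sox2 and Tfap2a overlap 1 noncoding RNA gene each, whereas Foxe3, Maf and Hsf4 overlap none. Whether exons of these genes overlap was not tested. The paper counted in HTSeq's union mode, and ambiguous pairs (0.940% to 1.37% of a library) were added to no gene. The libraries were stranded, but the sources do not say that strand was used in counting. The remaining pairs of overlapping genes therefore cannot be told apart with certainty. Of the genes with no such neighbor, Hsf4 and Maf were among the 9 that fell over all genotypes, and Foxe3 did not pass there. The part of overlapping genes in these values was not tested.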

How the data were processed

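Ribodepleted total RNA was made into stranded libraries by the authors, sequenced from both ends, aligned with HISAT2 and counted per Ensembl gene with HTSeq. Their methods give GRCm38 and the submitters' notes GRCm39, so no coordinates are printed. The deposited values are raw counts of 55416 gene IDs, 20214 of them without a count. Summary lines (pairs outside genes, 8.03% to 30.5%; ambiguous, 0.940% to 1.37%) entered neither the library sizes nor the tests.

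Tests used edgeR 4.0.16 in R 4.3.3 with filterByExpr, TMM scaling and robust dispersions, fitted across all genes. The quasi-likelihood test served injury in each genotype, the fit over all genotypes and interactions, and the exact test served knockout against WT, with SEs and intervals from the quasi-likelihood fit. The study used the quasi-likelihood test for its initial analysis and the exact test afterwards. A DEG also changed over 2-fold. The code was tested on simulated counts. Of 200 genes changed 2-fold there, the WT injury test called 10 and the fit over all genotypes 164. All other genes were unchanged in that simulation, whereas 26.2% of genes changed in the WT data. These recovery counts therefore need not hold for the injury tests on the real data. Alternatives were DESeq2 1.42.0, other tests, filters and scalings, 1 fit of 18 libraries, a replicate block and leaving out each library. Same-numbered WT libraries correlated at r 0.11 to 0.29 in their deviations from group means, all 3 pairs over 0.1, so the numbers were taken to pair WT libraries. The main WT fit left this pairing out, and the replicate block held it as an alternative. No replicate pair agreed within sampling noise.

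All 10 genes are named by the rule that lists them. The genes and lists were chosen with earlier results of these data known. The tables hold no names and the RefSeq table matched 0 IDs, so Egr1, Fosb, the lists of other lens regulators, their targets and immediate early genes, other cell type markers, and promoters were not analysed here.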

Additional observations from a re-analysis of the deposited data

Results flagged for a closer look

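Read pairs outside annotated genes were not part of any comparison. Their mean share of all read pairs at 6 h was 25.4% in WT, 21.5% in Egr1KO and 26.3% in FosBcKO, each above the 0 h libraries of the same genotype. No single library was tested as an outlier. No injury response of the 10 genes passed the interaction test between genotypes.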

How the results depend on the processing

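Of 824 alternative values for the injury responses of the 10 genes and the tests named for Foxe3 and Pax6, 745 kept their direction and their side of the threshold, 45 lost the call, 33 gained it and 1 changed sign. With leaving out 1 library, the count of genes that changed ran from 7 to 9 in WT (13.1% to 25.1% of all genes). It ran from 0 to 9 in Egr1KO (3.94% to 33.9%) and from 2 to 9 in FosBcKO (6.73% to 28.2%). Over all genotypes it ran from 9 to 10 (46.5% to 52.2%), and in FosBcKO against WT at 6 h from 0 to 1 (4.45% to 7.68%). Foxe3 in Egr1KO ran from -0.60 without 6 h replicate 1 to 0.022 without 6 h replicate 2, the change of sign, and was not called at either end. In Egr1KO the edgeR exact test and DESeq2 called 5 of 10 each (26.0% and 27.9% of all genes), and in FosBcKO the fit of all 18 libraries called 3 of 10 (17.7%). The minimum of 2-fold left 5 of 10 over all genotypes (22.1% of all genes). In FosBcKO against WT, DESeq2 called 1 of 10 at 0 h (Foxe3, 0.687% of all genes) and 1 of 10 at 6 h (Pax6, 6.53%), where edgeR with all libraries called 0. The replicate block gave 9 of 10 in WT (30.6% of all genes), 4 of 10 in Egr1KO (19.3%), 8 of 10 in FosBcKO (29.3%), 10 of 10 over all genotypes (51.3%) and 0 in the knockout comparisons and interactions. Outside WT only 1 of 3 pairs in Egr1KO and 2 of 3 in FosBcKO correlated over 0.1, so there the number was not taken as a pairing. In FosBcKO r ran from 0.091 to 0.22, beside 0.11 to 0.29 in WT, so the 2 genotypes differed little in this. All 9 same-numbered pairs of the 3 genotypes had r above 0 (0.034 to 0.29), so a pairing in the knockout groups remains possible. Without a filter the median of all genes over all genotypes was 0.48 in place of 0.08, and all 10 genes still lay below 0. The cause of these changes was not tested. With 3 libraries a group, differences between genotypes in the responses have intervals wide enough to hold 2-fold effects for most of the 10.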
